A study of Mus musculus with 6 samples.

Results

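The 47 genes described here encode the general machinery of pre-mRNA splicing apart from most of the SR proteins themselves: heterogeneous nuclear ribonucleoproteins (hnRNPs), factors that recognise the splice sites, core subunits of the spliceosome, and the kinases and coactivators that work with SR proteins. They were chosen by gene symbol, and all 47 were found among the 47205 genes of the deposited table. Ovaries of mice aged 9 days post partum (dpp) had been sequenced whole, in 3 libraries with a knockout of Srsf1 restricted to granulosa cells (cKO) and 3 wild-type libraries (WT). Granulosa cells are the follicle cells that enclose the oocyte and support its growth. The Cre driver, the strain and any allele that the WT mice carry were not given in the sources used here, and nothing in the labels says that the libraries of a group came from separate animals. P-values therefore measure only the spread among these libraries, which may be technical.

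Srsf1 is the founding member of the SR proteins, which bind exonic enhancers and recruit the splicing machinery to nearby splice sites. Many hnRNPs bind silencer elements and oppose SR proteins, so that the balance between both families helps to set which exons are kept. The U1 particle recognises the 5′ splice site, the U2 auxiliary factor and the U2 particle recognise the 3′ splice site and the branch point, and the tri-snRNP completes the spliceosome. The CLK and SRPK kinases phosphorylate the serine and arginine repeats of SR proteins and control where in the cell they act. The comparison asks whether these partners of Srsf1 change in level when Srsf1 is lost from granulosa cells. Values are FPKM (fragments per kilobase, corrected for gene length and library size), a total over all isoforms of a gene, so they do not measure splicing itself.

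The level of Srsf1 itself was 20.3, 26.9 and 21.4 FPKM in cKO and 39.9, 49.6 and 46.3 FPKM in WT, with libraries given throughout in the order of replicates 1, 2 and 3. The groups did not overlap, and the exact two-sided permutation p of 0.1 is the smallest that 3 against 3 libraries allow. The log2 fold change of Srsf1 was -0.96 (SE 0.134), with an unadjusted p of 0.000185 and an adjusted p of 0.320 by limma, so Srsf1 itself did not pass the threshold of 0.05 over all genes tested. The libraries held 18.6 to 18.7 M recovered reads in cKO and 16.8 to 18.5 M in WT. Granulosa cell markers summed to 1047 to 1174 FPKM in cKO and 1237 to 1267 FPKM in WT over 15 genes, with 10 of 14 tested genes lower. The 16 oocyte markers summed to 4134 to 4519 FPKM in cKO and 4304 to 4540 FPKM in WT, with 10 lower and 6 higher. All 14 leukocyte markers were higher in cKO (sums of 103 to 446 FPKM, against 52.9 to 73.3 FPKM in WT), as were all 15 interferon response genes, whose sum was 744 FPKM in cKO replicate 1, 140 and 194 FPKM in the other cKO libraries and 102 to 133 FPKM in WT. All 10 surface epithelium markers and all 12 endothelial markers were higher in cKO as well, with sums of 290 to 394 and 258 to 280 FPKM in cKO and 194 to 269 and 232 to 238 FPKM in WT. Erythroid markers summed to 157, 240 and 572 FPKM in cKO and 190, 182 and 333 FPKM in WT, with all 5 tested genes higher in cKO and the highest sum in cKO replicate 3. Of 11 stroma and theca markers 7 were higher and 4 lower (2421 to 3151 FPKM in cKO, 2126 to 3065 FPKM in WT), and the 3 tested of 7 neuronal markers were lower (sums of 16.0 to 21.9 FPKM in cKO and 21.7 to 25.1 FPKM in WT). No marker of any of these lists passed the threshold by limma. Over all 14714 genes tested, 7352 were higher and 7362 lower in cKO. No marker of these lists was at 0 in all libraries, and the part of these cells in the values below was not tested. In whole ovaries, fewer cells of a type and less RNA per cell cannot be told apart.

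One library of each group stood apart along gene length. Over the 14714 genes tested, which average 1 FPKM or more, genes under 1 kb lay 0.20 above their mean of 6 libraries in cKO replicate 2 and 0.19 below it in WT replicate 2, as medians on the scale of log2(FPKM + 1). For genes over 8 kb the same medians were -0.15 in cKO replicate 2 and 0.12 in WT replicate 2. In the other 4 libraries the median of every length class lay between -0.03 and 0.06. For some of the 47 genes that this gradient could touch, results are also given with both libraries left out or with the trend on gene length removed. Other splicing genes, described further below, are given without either check.

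As a group the splicing machinery was abundant and did not move in one direction. Of the 47 genes, 46 passed the filter, 41 of them at a mean of 10 FPKM or more and 6 above 100 FPKM. Their median level was 49.3 FPKM, against 8.61 FPKM over all genes tested, a level above that of 92.2% of those genes. Between cKO and WT, 23 members were higher and 23 lower, and none passed an adjusted p of 0.05 in either direction (limma with Benjamini-Hochberg adjustment over all genes tested), where 0.0204% of all genes did (0.0068% higher and 0.0136% lower in cKO). The median log2 fold change was 0.0049 over the members and -0.0001 over all genes tested. For 40 members the fold change was under 0.2 on the log2 scale in either direction, and for 39 the 95% interval lay within 0.5 on either side of 0. At an unadjusted limma p under 0.05 there was 1 member, 2.17% of those tested, against a background of 6.34%. The libraries of the groups did not overlap in 5 members, 10.9%, against 12.3% of all genes tested. In 2 of these cKO lay above WT, where 6.37% of all genes did, and in 3 below, where 5.89% did.

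**Figure D1:**
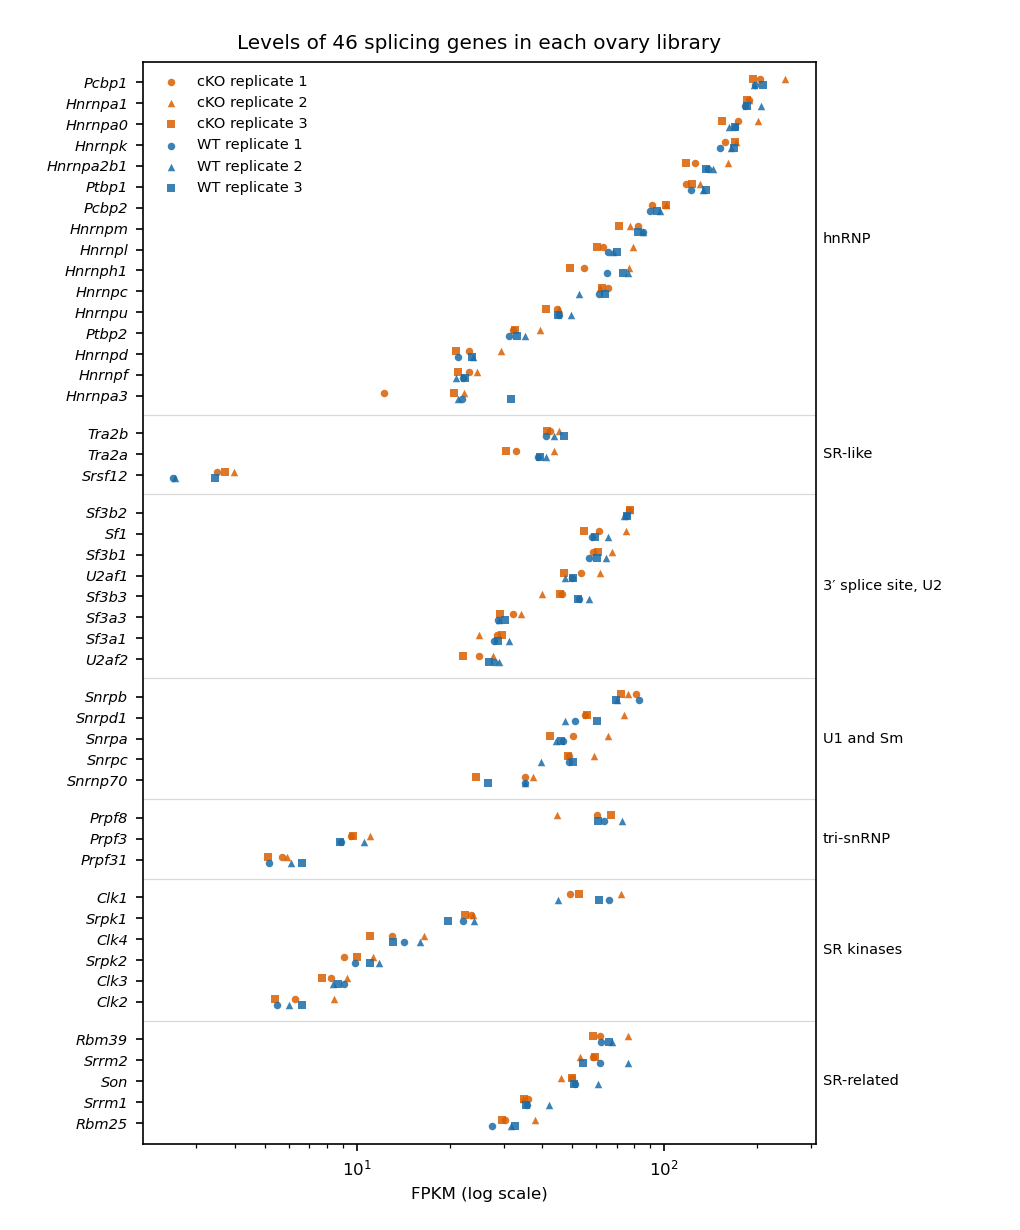
FPKM on a log scale of the 46 tested genes in each library, ordered by role and mean level, with cKO libraries in orange and WT libraries in blue and a symbol for each replicate number. The genes run from Pcbp1, with a mean of 209 FPKM, to Srsf12, with 3.29 FPKM. For nearly all of them cKO and WT libraries lie on top of each other, with cKO replicate 2 often at the right. Snrpn, at or under 0.0665 FPKM, is not plotted.

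The split of 23 higher and 23 lower rested on which libraries were counted. Of the 46 members, 27 had their highest value in cKO replicate 2, and 19 had their lowest in cKO replicate 3. The median deviation of the members from their mean of 6 libraries was -0.02, 0.13 and -0.07 in cKO and -0.03, 0.05 and 0.01 in WT on the log2(FPKM + 1) scale, where all genes tested lay between -0.0033 and 0.013. Without cKO replicate 2 the split was 14 higher and 32 lower, and none passed the threshold (smallest adjusted p = 0.386, limma). After rescaling of the libraries to a common total it was 15 higher and 31 lower, while the median of all genes moved to -0.06. The members took 1.13%, 1.26% and 1.07% of the recovered reads in cKO and 1.16%, 1.22% and 1.16% in WT.

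**Figure D2:**
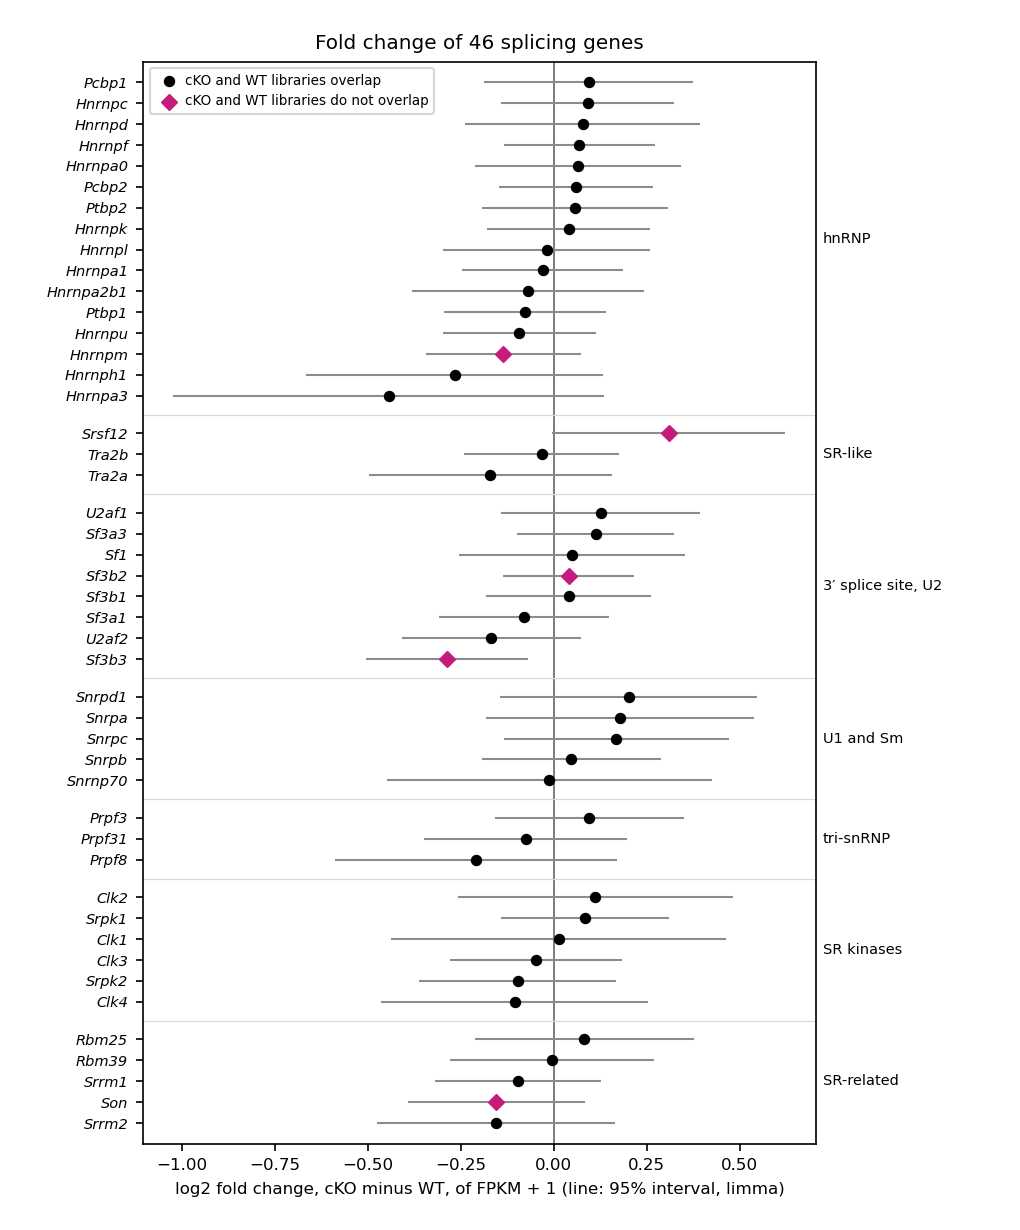
Log2 fold change, cKO minus WT, of FPKM + 1 for the 46 tested genes by role, with lines for the 95% interval from limma. Sf3b3 is the gene whose interval lies wholly on one side of 0 (-0.50 to -0.07). Diamonds mark the 5 genes whose cKO and WT libraries do not overlap, namely Hnrnpm, Srsf12, Sf3b2, Sf3b3 and Son.

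The 16 hnRNP genes, which include the related PTB and poly(C)-binding proteins, were higher in cKO in 8 cases and lower in 8, with a median log2 fold change of 0.01 and no member past the threshold (smallest adjusted p = 0.801, limma). Pcbp1, an intronless gene for a poly(C)-binding protein, was the most abundant gene of all 47, at 206, 248 and 194 FPKM in cKO and 197, 196 and 210 FPKM in WT. Its highest value was in cKO replicate 2, and the groups overlapped. Hnrnpa1, a classical antagonist of SRSF1 in splice site choice, stood at 190, 188 and 186 FPKM in cKO and 184, 206 and 186 FPKM in WT, a log2 fold change of -0.03 with a 95% interval of -0.25 to 0.19. Hnrnpa0 and Hnrnpa2b1, of the same A/B subfamily, were at 155 to 201 and 117 to 161 FPKM in cKO and at 163 to 171 and 137 to 144 FPKM in WT. Both had their highest value of all libraries in cKO replicate 2 and their lowest in cKO replicate 3, so that the WT range lay inside the cKO range. Ptbp1, which represses exons through polypyrimidine tracts, stood at 118, 131 and 123 FPKM in cKO and 122, 133 and 136 FPKM in WT. Its paralog Ptbp2, best known from neurons, was present in the ovary at a lower level, 32.1, 39.4 and 32.6 FPKM in cKO and 31.2, 35.2 and 33.2 FPKM in WT. The ratio of Ptbp2 to Ptbp1 was 0.273, 0.301 and 0.265 in cKO and 0.255, 0.264 and 0.244 in WT, and all cKO ratios lay above all WT ratios (exact two-sided permutation p = 0.1, the smallest possible, and 0.2 after adjustment over the 6 ratios computed).

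Hnrnpm, whose protein binds GU-rich elements (chromosome 17, 33865207 to 33904432, minus strand, on GRCm39 as all positions of genes here), stood at 82.2, 77.6 and 71.0 FPKM in cKO and 85.6, 85.4 and 82.2 FPKM in WT. Every cKO library was below every WT library, but cKO replicate 1 and WT replicate 3 were almost equal, and the log2 fold change of -0.13 (SE 0.0884) had an adjusted p of 0.824 by limma. Hnrnph1, which binds G-rich elements (chromosome 11, 50266084 to 50277355), stood at 54.8, 76.8 and 49.3 FPKM in cKO and 65.0, 76.3 and 73.4 FPKM in WT. In cKO replicates 1 and 3 it was below all WT libraries and in cKO replicate 2 above them. Over all 6 libraries its log2 fold change was -0.27 (SE 0.169, adjusted p = 0.821 by limma). With 1 library left out at a time it ran from -0.45 without cKO replicate 2 (limma adjusted p = 0.386) to -0.14 without cKO replicate 3 (limma adjusted p = 0.810). Of the remaining hnRNP genes, Hnrnpc, Hnrnpd, Hnrnpf, Hnrnpk, Hnrnpl, Hnrnpu and Pcbp2 had log2 fold changes of -0.09 to 0.09, with overlapping groups in each.

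Hnrnpa3, an A/B hnRNP (chromosome 2, 75489416 to 75499751, plus strand), had the most variable level among the members. It stood at 12.3, 22.2 and 20.6 FPKM in cKO and 21.9, 21.4 and 31.7 FPKM in WT. The lowest value was that of cKO replicate 1 and the highest that of WT replicate 3, while the other 4 libraries lay within 20.6 and 22.2 FPKM. The log2 fold change of -0.44 (SE 0.245, adjusted p = 0.801 by limma) was the largest among the members in size and was -0.19 without cKO replicate 1, -0.27 without WT replicate 3, -0.72 with library weights and -0.69 with both replicates 2 left out. The table lists 21 pseudogenes whose protein hit is Hnrnpa3, and 4 of them passed the filter. One, Gm6793 (chromosome 8, 112740065 to 112741668, minus strand), was listed at a higher FPKM than Hnrnpa3 itself, 44.2, 64.1 and 45.6 FPKM in cKO and 52.4, 58.3 and 59.1 FPKM in WT.

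The copies are shown because reads of Hnrnpa3 and of its copies are hard to assign. Aligned to the 1140-base coding sequence of Hnrnpa3 (GENCODE M21, GRCm38), the identity was 97.7% for Gm6793, 98.1% for Gm11847, 97.2% for Gm8991 and 99.2% for Gm12960, gaps counted as differences, and the longest identical run was 289, 651, 285 and 491 bases. These were local alignments of annotated transcripts of 1066 to 1604 bases. For Gm6793, Gm8991 and Gm12960 they began at bases 69 to 71 of the coding sequence. The deposited gene lengths were 5411 bases for Hnrnpa3, 5253 for Gm11847 and 12366 for Gm12960, so most of these bases were not aligned. Among stretches of 120 bases without a gap in any of these copies, bases 313 to 432 are the first with the most differences between Hnrnpa3 and Gm6793. Over its whole alignment Gm6793 had 7 mismatches. Capitals mark the bases at which a copy differs from Hnrnpa3.
Hnrnpa3: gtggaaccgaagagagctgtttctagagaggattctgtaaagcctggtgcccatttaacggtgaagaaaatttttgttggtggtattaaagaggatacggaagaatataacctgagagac
Gm6793: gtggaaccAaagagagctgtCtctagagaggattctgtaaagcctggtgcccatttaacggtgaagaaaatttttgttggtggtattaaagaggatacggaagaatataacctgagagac
Gm11847: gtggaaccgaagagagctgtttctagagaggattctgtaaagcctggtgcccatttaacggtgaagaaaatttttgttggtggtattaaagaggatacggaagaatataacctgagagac
Gm8991: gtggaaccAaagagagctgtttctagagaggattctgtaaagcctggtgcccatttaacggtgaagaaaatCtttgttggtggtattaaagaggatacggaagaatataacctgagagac
Gm12960: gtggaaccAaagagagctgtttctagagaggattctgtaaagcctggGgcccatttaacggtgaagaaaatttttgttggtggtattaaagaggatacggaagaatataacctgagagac
Gm6793, Gm8991 and Gm12960 differed from Hnrnpa3 at 2 of these 120 bases each, and Gm11847 at 0.

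Counted together, Hnrnpa3 and its 21 copies had 4300, 5665 and 4656 recovered reads in cKO and 5401, 5363 and 5970 in WT, on the authors' library scaling. The copies took 58.7% of these reads, counted over their full listed lengths and not only the aligned part. On this sum the groups overlapped through cKO replicate 2, and the ratio of the means was -0.19 on the log2 scale, against -0.44 for the reads listed under Hnrnpa3 alone. The copies alone had 3079, 3454 and 2606 reads in cKO and 3223, 3238 and 2816 in WT. Among the WT libraries, replicate 3 had the most reads under Hnrnpa3 and the fewest under its copies. On the sum of the copies the cKO libraries did not show this pattern, as cKO replicate 2 had the most reads under both (2211 and 3454). Replicate 1 of cKO had the fewest under Hnrnpa3 (1221) and the lowest sum (4300). Gm11847 alone stood at 11.6, 8.97 and 6.76 FPKM in cKO and 9.68, 6.98 and 2.98 FPKM in WT. It was highest in cKO replicate 1, where Hnrnpa3 was lowest, and lowest in WT replicate 3, where Hnrnpa3 was highest. Gm6793, Gm8991 and Gm12960 showed neither of these extremes. The log2 fold change of Gm11847 was 0.51 (SE 0.363, adjusted p = 0.83 by limma). How reads were shared between Hnrnpa3 and its copies was not tested, and the value of Hnrnpa3 is uncertain. In the other members with a tested copy, Hnrnpa1, Hnrnpf, Tra2b, U2af2 and Snrpc, the copies took 2.06% to 6.52% of the reads.

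**Figure D3:**
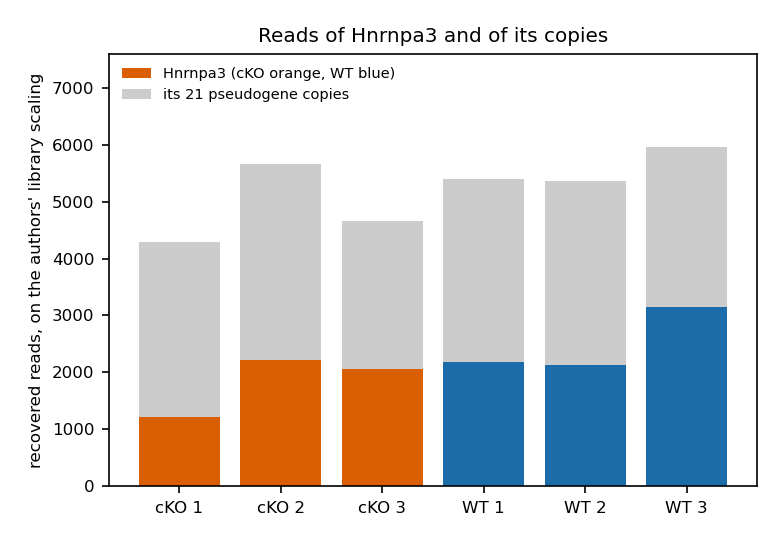
Recovered reads of Hnrnpa3 (orange in cKO, blue in WT) and of its 21 pseudogene copies (grey) stacked for each library, on the authors' library scaling. Hnrnpa3 ranges from 1221 reads in cKO replicate 1 to 3154 in WT replicate 3, whereas the stacked totals run from 4300 to 5970.

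Among the activators that bind exonic enhancers, Tra2a and Tra2b encode the mammalian homologues of the Drosophila sex determination factor Transformer 2. Tra2b stood at 42.3, 45.4 and 41.6 FPKM in cKO and 41.3, 43.8 and 47.3 FPKM in WT, with overlapping groups. Tra2a (chromosome 6, 49220855 to 49241182) stood at 32.9, 43.6 and 30.4 FPKM in cKO and 38.7, 41.1 and 39.5 FPKM in WT. As for Hnrnph1, cKO replicates 1 and 3 lay below all WT libraries and cKO replicate 2 above them. Its log2 fold change was -0.17 (SE 0.138, adjusted p = 0.848 by limma). With 1 library left out at a time it ran from -0.32 without cKO replicate 2 (limma adjusted p = 0.458) to -0.07 without cKO replicate 3 (limma adjusted p = 0.889).

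Srsf12, an SR protein gene that is only listed here beside Tra2a and Tra2b (chromosome 4, 33208991 to 33233344, plus strand), was the least abundant tested member, at 3.51, 3.98 and 3.72 FPKM in cKO and 2.52, 2.55 and 3.45 FPKM in WT. These values rested on 209, 241 and 215 recovered reads in cKO and 137, 146 and 201 in WT. Every cKO library was above every WT library, although WT replicate 3 was close to cKO replicate 1. The log2 fold change of 0.31 (SE 0.133) was the highest of the 46 members and did not pass the threshold (limma adjusted p = 0.773), and the scale with a pseudocount of 1 understates the change of a gene at this level.

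Of the 8 genes for recognition of the 3′ splice site and the branch point, 5 were higher and 3 lower in cKO, with a median log2 fold change of 0.04 and none past the threshold. U2af1 and U2af2 encode the small and large subunits of the U2 auxiliary factor, which bind the 3′ splice site and the polypyrimidine tract. U2af1 stood at 53.7, 61.9 and 47.1 FPKM in cKO and 49.9, 47.6 and 50.4 FPKM in WT. Its partner U2af2 (chromosome 7, 5063884 to 5082944) stood at 25.0, 27.7 and 22.0 FPKM in cKO and 27.9, 29.1 and 26.9 FPKM in WT. Both groups overlapped for each gene taken alone, with a log2 fold change of 0.13 (SE 0.113) for U2af1 and -0.17 (SE 0.102) for U2af2, neither past the threshold (limma adjusted p = 0.858 and 0.811). The ratio of U2af1 to U2af2 within a library was 2.15, 2.24 and 2.14 in cKO and 1.79, 1.64 and 1.87 in WT. All cKO ratios were above all WT ratios (exact two-sided permutation p = 0.1, adjusted p = 0.2 over the 6 ratios). U2af1 has 1092 bases and U2af2 6289, and the widest ratios were those of cKO replicate 2 and WT replicate 2, with the remaining cKO ratios still above the remaining WT ratios.

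The SF3A and SF3B complexes anchor the U2 particle at the branch point. Sf3b3, a subunit of SF3B (chromosome 8, 111537123 to 111573578, minus strand), stood at 46.5, 40.2 and 45.9 FPKM in cKO and 52.6, 56.9 and 52.6 FPKM in WT. Every cKO library was below every WT library, and the extremes were cKO replicate 2 and WT replicate 2. The log2 fold change was -0.29 (SE 0.0921, 95% interval -0.50 to -0.07). Its unadjusted limma p of 0.0169 was the smallest of the 46 members, the adjusted p was 0.743, and the exact permutation p of Sf3b3 alone was 0.1, the smallest possible. With both replicates 2 left out the log2 fold change was -0.18 (limma adjusted p = 0.965), and with the trend on gene length removed it was -0.27 (limma adjusted p = 0.724). Its first bases overlap those of Cog4 on the other strand, which stood at 25.7, 25.4 and 23.8 FPKM in cKO and 26.2, 27.4 and 25.6 FPKM in WT.

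Sf3b2, another subunit of SF3B, was the steadiest of all members, at 76.8, 76.7 and 77.5 FPKM in cKO and 75.2, 73.9 and 75.4 FPKM in WT. Its highest value was 1.05 times its lowest, and although the groups did not overlap, the log2 fold change was only 0.04 (SE 0.0744, adjusted p = 0.920 by limma) and turned to -0.02 after rescaling to a common total. Sf3b1, the subunit that contacts the branch point region, stood at 58.8, 67.5 and 61.0 FPKM in cKO and 57.0, 64.4 and 60.5 FPKM in WT. The ratio of Sf3b3 to Sf3b2 was 0.605, 0.524 and 0.592 in cKO and 0.700, 0.771 and 0.697 in WT. Because every cKO library was below WT for Sf3b3 and above WT for Sf3b2, these ratios could not overlap. Their exact two-sided permutation p of 0.1 (adjusted p = 0.2 over the 6 ratios) was thus fixed beforehand and adds nothing to the separate genes. That p also entered the adjustment of the other ratios. Sf3a3 was at 32.3, 34.3 and 29.2 FPKM in cKO and 28.7, 29.0 and 30.4 FPKM in WT, and Sf3a1 at 28.5, 25.0 and 29.7 FPKM in cKO and 27.9, 31.2 and 28.8 FPKM in WT. The branch point binding protein gene Sf1, which acts before the U2 particle arrives, ranged from 54.8 to 75.0 FPKM in cKO and from 58.3 to 65.6 FPKM in WT.

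The U1 particle and the Sm ring, the protein core that U1, U2, U4 and U5 share, were represented by 6 genes, of which 5 were tested. In cKO 4 of these were higher and 1 lower, with a median log2 fold change of 0.17 and none past the threshold (smallest adjusted p = 0.831, limma). Snrpd1, a subunit of the Sm ring, stood at 55.2, 73.7 and 55.9 FPKM in cKO and 51.3, 47.7 and 60.6 FPKM in WT. Snrpc, the U1 protein that stabilises pairing with the 5′ splice site, stood at 48.9, 59.0 and 48.4 FPKM in cKO and 48.9, 39.7 and 50.4 FPKM in WT. In both genes cKO replicate 2 was the highest and WT replicate 2 the lowest library. They are also the shortest members, 837 and 856 bases, and with both replicates 2 left out their log2 fold changes of 0.20 and 0.17 turned to -0.0068 and -0.03. With the length trend removed they stayed above 0, at 0.0825 and 0.0506. Snrpa, which binds a stem-loop of the U1 RNA, had 50.5, 65.4 and 42.6 FPKM in cKO and 46.8, 44.6 and 46.2 FPKM in WT, with the highest and lowest values both in cKO. Its log2 fold change of 0.18 likewise turned to -0.0033 without these libraries and was 0.11 with the length trend removed. Snrpb, the most abundant Sm gene of the list, had 80.7, 76.3 and 72.5 FPKM in cKO and 82.7, 70.0 and 69.6 FPKM in WT. Snrnp70, the U1 protein through which SRSF1 is known to contact the U1 particle, had 35.3, 37.3 and 24.5 FPKM in cKO and 35.3, 35.1 and 26.7 FPKM in WT, so that replicate 3 was the lowest in both groups and the means were equal at 32.4 FPKM.

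Snrpn, an imprinted gene for a Sm protein related to SNRPB (chromosome 7, 59632243 to 60099925, minus strand), was the 1 member below the filter. It had 5, 0 and 5 recovered reads in cKO and 4, 4 and 3 in WT, or 0.0645, 0 and 0.0665 FPKM in cKO and 0.0567, 0.0537 and 0.0396 FPKM in WT. A count of 0 in cKO replicate 2 allows up to 3 reads, 0.0381 FPKM, so no difference was detectable at this depth. Snurf, which is made from the same transcript and lies within the Snrpn locus in the table, was listed at 0 in all 6 libraries. How reads of overlapping genes had been counted was not given in the sources used here, and whether this set the low values was not tested.

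**Figure D4:**
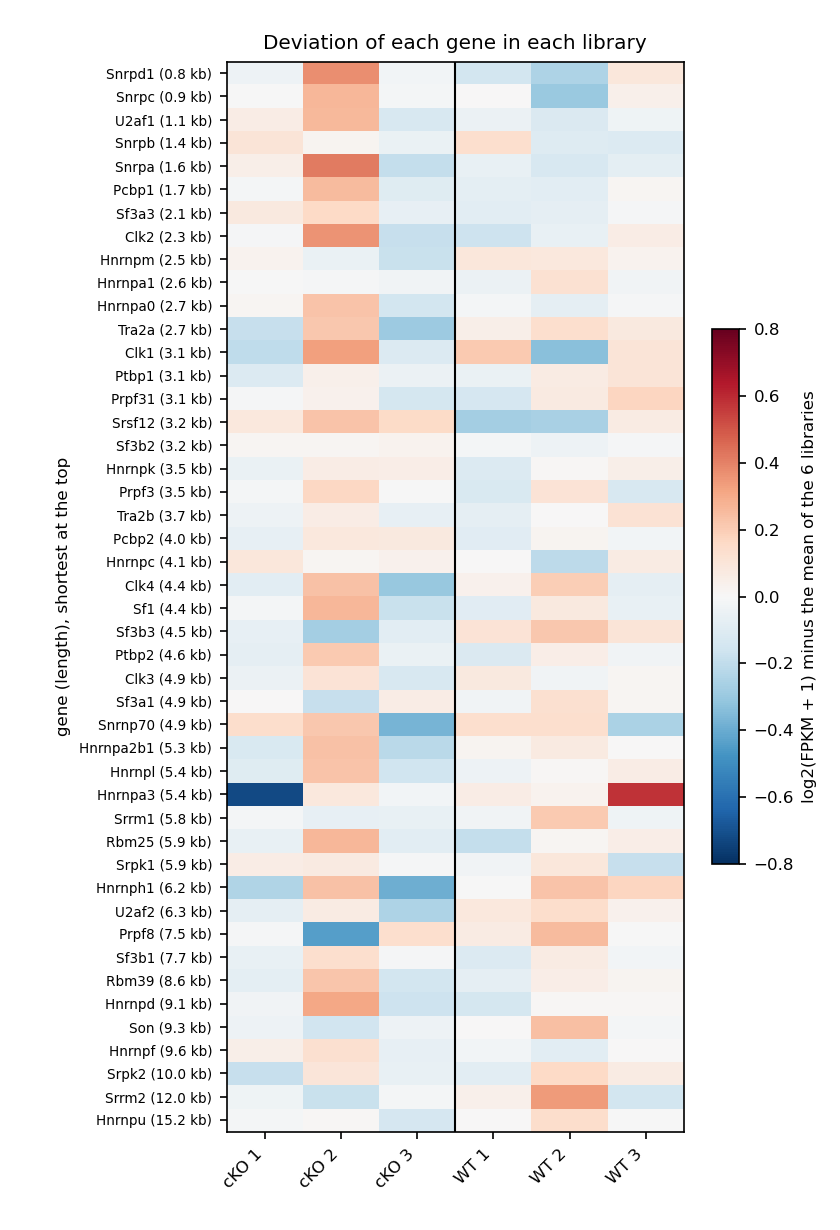
Deviation of each of the 46 tested genes from its mean over the 6 libraries, in log2(FPKM + 1), with the shortest gene at the top and cKO libraries to the left of the black line. The column of cKO replicate 2 is red in most rows, among them short genes such as Snrpd1 (0.37) and Snrpa (0.41), and blue in Prpf8, Sf3b3, Sf3a1, Srrm2 and Son. WT replicate 2 is blue in the short genes at the top and red in long ones such as Srrm2 and Prpf8. The strongest cells are those of Hnrnpa3, at -0.725 in cKO replicate 1 and 0.58 in WT replicate 3.

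The tri-snRNP genes showed no common direction, with 1 of 3 higher in cKO. Prpf8, the central scaffold of the catalytic core (7481 bases), stood at 60.6, 44.7 and 67.1 FPKM in cKO and 63.8, 72.9 and 60.8 FPKM in WT. The lowest library was cKO replicate 2 and the highest WT replicate 2, the reverse of the short Sm genes, and the other 4 libraries lay between 60.6 and 67.1 FPKM. Its log2 fold change of -0.21 (SE 0.16, adjusted p = 0.841 by limma) became 0.03 with both replicates 2 left out and was -0.15 with the length trend removed. Prpf3 and Prpf31, both subunits of the U4/U6 part, were much less abundant. Prpf3 had 9.58, 11.01 and 9.69 FPKM in cKO and 8.84, 10.6 and 8.79 FPKM in WT, and Prpf31 had 5.70, 5.91 and 5.12 FPKM in cKO and 5.16, 6.09 and 6.60 FPKM in WT.

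The 6 kinase genes for SR proteins were 3 higher and 3 lower in cKO, with a median log2 fold change of -0.02, none past the threshold (smallest adjusted p = 0.880, limma) and overlapping groups in each. Among the nuclear CLK kinases, Clk1 had the highest level and the widest spread, 49.5, 72.1 and 53.0 FPKM in cKO and 66.2, 45.2 and 61.4 FPKM in WT. Replicate 2 was the highest of its group in cKO and the lowest in WT, so that the group means were equal within their spread (58.2 ± 12.2 FPKM in cKO and 57.6 ± 11 FPKM in WT, SD, n = 3 each). With both replicates 2 left out, the remaining cKO libraries lay below the remaining WT libraries, at a log2 fold change of -0.31 (limma adjusted p = 0.830). Clk4, its closest relative, had 13.03, 16.5 and 11.03 FPKM in cKO and 14.2, 16.0 and 13.1 FPKM in WT. Clk2 and Clk3 were lower still, Clk2 at 6.27, 8.39 and 5.43 FPKM in cKO and 5.51, 5.998 and 6.63 FPKM in WT. Clk3 stood at 8.21, 9.25 and 7.69 FPKM in cKO and 9.07, 8.34 and 8.64 FPKM in WT. The mean levels thus ran Clk1, Clk4, Clk3, Clk2 in both groups, with overlapping ranges of Clk3 and Clk2 in cKO.

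The SRPK kinases phosphorylate SR proteins largely in the cytoplasm and promote their entry into the nucleus. Srpk1 stood at 23.6, 23.8 and 22.4 FPKM in cKO and 22.1, 24.0 and 19.8 FPKM in WT, a log2 fold change of 0.08 (95% interval -0.14 to 0.31). Srpk2 stood at 9.08, 11.3 and 10 FPKM in cKO and 9.82, 11.8 and 10.99 FPKM in WT, a log2 fold change of -0.10 (95% interval -0.36 to 0.17). The ratio of Srpk1 to Srpk2 was 2.60, 2.12 and 2.24 in cKO and 2.25, 2.04 and 1.80 in WT, with overlapping groups (exact two-sided permutation p = 0.3, adjusted p = 0.45 over the 6 ratios).

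Of the 5 SR-related coactivators and speckle proteins, 1 was higher and 4 lower in cKO, none past the threshold (smallest adjusted p = 0.822, limma). They are the longest role group, with a median of 8601 bases, and their median deviation was 0.21 in WT replicate 2 against -0.06 to -0.02 in the other 5 libraries. Son, a scaffold of nuclear speckles (chromosome 16, 91444712 to 91476080), stood at 49.9, 46.05 and 49.98 FPKM in cKO and 51.4, 60.9 and 50.8 FPKM in WT. The groups did not overlap but came within 1 FPKM of each other, with WT replicate 2 alone far above. Its log2 fold change of -0.15 (SE 0.1, adjusted p = 0.822 by limma) was -0.07 without WT replicate 2. Srrm2, the other main speckle scaffold, stood at 58.8, 53.0 and 59.5 FPKM in cKO and 62.0, 76.4 and 54.3 FPKM in WT, with a log2 fold change of -0.15 that was 0.03 with both replicates 2 left out. Srrm1, a coactivator that bridges SR proteins and the spliceosome, stood at 36.0, 34.8 and 34.9 FPKM in cKO and 35.7, 42.2 and 35.5 FPKM in WT, again with WT replicate 2 as the one high library. Rbm25 had 30.2, 38.0 and 29.6 FPKM in cKO and 27.4, 31.8 and 32.7 FPKM in WT, and Rbm39, a U2AF-related factor, 61.7, 76.1 and 58.7 FPKM in cKO and 62.1, 67.7 and 66.2 FPKM in WT. Both overlapped between groups and were highest in cKO replicate 2, at lengths of 5921 and 8601 bases.

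**Figure D5:**
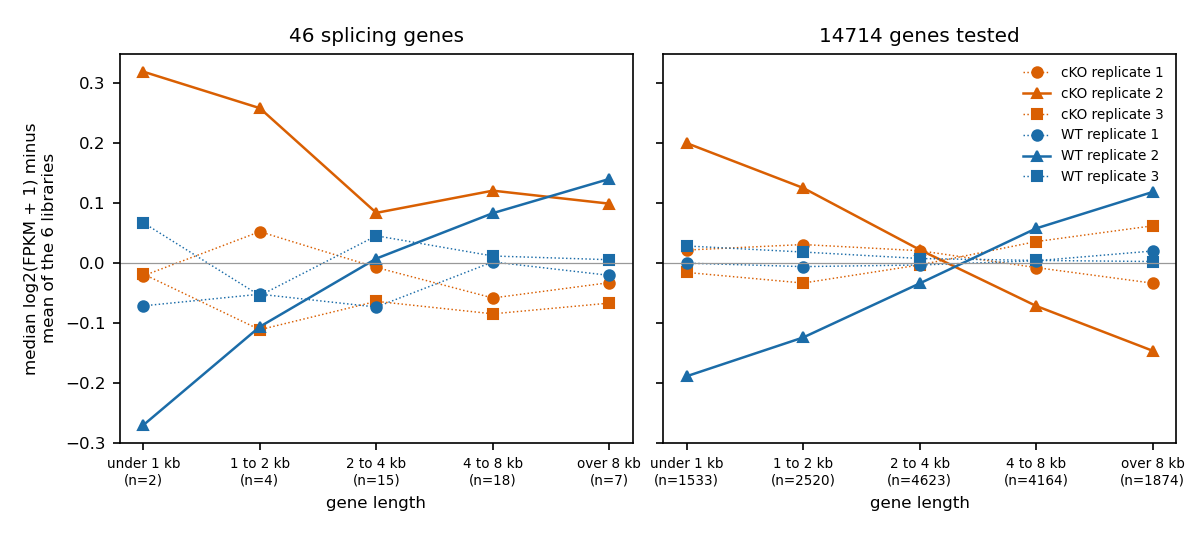
Median deviation from the mean of 6 libraries, in log2(FPKM + 1), by class of gene length, for the 46 splicing genes (left) and all 14714 genes tested (right), with cKO in orange and WT in blue. Solid lines are cKO replicate 2 and WT replicate 2, which cross in both panels. In the left panel the line of cKO replicate 2 stays above 0 in every class, whereas over all genes it falls to -0.15 for those over 8 kb. The classes under 2 kb hold only 6 of the splicing genes.

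Across the 46 members the deviation in a library ran with gene length most in WT replicate 2 (Spearman's rho 0.605, over all genes tested 0.415) and in cKO replicates 1 and 2 (-0.333 and -0.32, over all genes tested -0.135 and -0.38), as a description, since the members of a library share its depth and composition. In cKO replicate 2 the 7 members over 8 kb had a median deviation of 0.10, where all genes of that class had one of -0.15. They were not alike, with Hnrnpd at 0.31, Rbm39 at 0.22 and Hnrnpu at 0.01, but Son at -0.15 and Srrm2 at -0.18. The members' spread within groups was otherwise small, a median SD of 0.13 on the log2(FPKM + 1) scale, against 0.145 over the 6680 genes that average 10 FPKM or more.

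The promoters of the members were rich in CpG. RefSeq promoter sequences (GRCm38.p6, a short window around the start of each gene) matched 43 of the 47 members, with a median of 26 CpG dinucleotides, against 20 over 10625 matched genes that were tested and 7 over all 27025. The motif GGGCGG, on either strand, was found in 62.8% of the members, 68% of the tested genes and 38.2% of all genes. CCAAT was found in 53.5% of the members, 42.6% of the tested genes and 41.1% of all genes, CCGGAAG in 25.6%, 19.4% and 9.93%, and TATAAA in 14%, 8.71% and 15.7%, again on either strand. No motif of these contains another, and a match is a run of letters, not a shown binding site.

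In a wider list of 111 other splicing genes 110 were tested, of which 68 were higher and 42 lower in cKO. Over all genes tested, 7352 were higher and 7362 lower. None of the 110 was past the threshold (smallest adjusted p = 0.773, limma), where 0.0204% of all genes passed. The median log2 fold change was 0.02. Without overlap, cKO lay above WT in 7 of the 110 genes and below in 3, where 6.37% and 5.89% of all genes tested did. Of 19 further U1, U2 and Sm genes 15 were higher, with a median of 0.10 and a median length of 1648 bases. Snrpg and Snrpe, subunits of the Sm ring, were the foremost. Snrpg (393 bases) stood at 56.6, 86.5 and 67.0 FPKM in cKO and 51.9, 56.0 and 53.4 FPKM in WT, and Snrpe (492 bases) at 63.3, 69.2 and 68.9 FPKM in cKO and 57.8, 40.6 and 60.5 FPKM in WT. Neither overlapped between groups, at log2 fold changes of 0.35 (SE 0.153) and 0.36 (SE 0.156) and an adjusted p of 0.773 for each by limma. In both genes cKO replicate 2 was the highest library, and WT replicate 2 was the lowest for Snrpe. Among 20 tri-snRNP and LSm genes 13 were higher, among 26 genes of the Prp19 complex, the helicases and the exon junction complex 16 were higher, among 17 further hnRNP genes 10 and among 8 genes of the minor spliceosome 6. The RNA helicase gene Ddx17 (8791 bases) went the other way from the Sm genes, at 83.4, 83.2 and 77.0 FPKM in cKO and 93.5, 108 and 84.6 FPKM in WT, without overlap (log2 fold change -0.22 with SE 0.11, adjusted p = 0.791 by limma). Its highest library was WT replicate 2, and Ddx17, like Snrpg and Snrpe, is given here with neither check on gene length. Hnrnph3, a relative of Hnrnph1, had 8.39, 10.2 and 7.08 FPKM in cKO and 10.1, 11.1 and 10.3 FPKM in WT, with cKO replicate 2 just inside the WT range (log2 fold change -0.28 with SE 0.132, adjusted p = 0.781 by limma).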

How the data were processed

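The authors deposited a single table of FPKM per gene for 6 libraries. HISAT2 2.0.5 and the builds mm10 and GRCm39 are listed, with no role, per the submitters' processing notes. The table's chromosome accessions are those of GRCm39. The read counter, annotation release and strandedness were not given in the sources used here, so reads of overlapping genes, antisense genes and near-identical copies cannot be told apart with certainty. FPKM times the deposited gene length gave a whole multiple of 1 step in 100% of values (tolerance 0.01), read as recovered reads, with 0.052 to 0.0581 FPKM per read in a gene of 1 kb.

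Groups and replicate numbers came from the labels. FPKM was transformed to log2(FPKM + 1), which shrinks the changes of genes at low level, and the 14714 genes averaging 1 FPKM or more were tested with limma 3.58.1 in R 4.3.3 (trended prior, two-sided, Benjamini-Hochberg over all genes tested, threshold 0.05). Fold changes are cKO minus WT with the moderated SE, and the intervals are 95%. The members and lists were chosen with earlier results of these data known. Described in every library were members past the threshold, with an unadjusted p under 0.05 or with groups that do not overlap, the 3 smallest p and the highest and lowest level of each role group. From each wider list, up to 4 genes with the smallest p could be named. Other members and the overlapping genes were named after their values were seen, as were the ratios and copies. Alignments used Biopython 1.88. The test was tested on simulated data. In all, 19 alternatives were run, 17 of them planned.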

Additional observations from a re-analysis of the deposited data

How the results depend on the processing

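In all 19 alternatives no member passed the threshold in either direction, and the median log2 fold change of the members lay between -0.06 and 0.05. The smallest adjusted p of any member under any alternative was 0.328 (Sf3b3 with library weights, limma). Sf3b3 had an unadjusted p under 0.05 in 17 of 19 alternatives; without WT replicate 2 and with both replicates 2 left out it did not. Srsf1 stayed between -0.88 and -1.08, also with single libraries left out.

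Over all genes, 1 was higher and 2 were lower in cKO. The count higher was 0 with a pseudocount of 0.1 or 0.5, a filter at 5 FPKM, no filter, the replicate block, limma-voom on recovered reads and the gene-length trend removed, and 3 with library weights. The count lower was 0 with no filter, the replicate block and limma-voom, and 1 with the gene-length trend removed or both replicates 2 left out. With 1 library left out at a time, 0 to 1 genes were higher and 0 to 1 lower; the cause was not tested. The removal of the length trend and of both replicates 2 was chosen after seeing the data.

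Some small fold changes turned sign, the cause not tested. Rescaling to a common total gave -0.0229 for Sf3b2, -0.0154 for Snrpb and -0.0494 for Clk1. Library weights gave -0.1373 for Clk1, and equal medians gave 0.0025 for Rbm39. Removing the length trend gave -0.028 for Snrpb, -0.0005 for Clk1 and 0.0695 for Rbm39. Leaving out both replicates 2 gave -0.027 for Pcbp1, -0.0033 for Snrpa, -0.0284 for Snrpc, -0.0068 for Snrpd1, 0.0331 for Prpf8, -0.3105 for Clk1, -0.0435 for Clk2, -0.0009 for Rbm25 and 0.0278 for Srrm2. With 1 library left out at a time the range was -0.0093 to 0.1665 for Pcbp1, -0.0775 to 0.0181 for Tra2b, -0.1486 to 0.1216 for Clk1, -0.0404 to 0.2332 for Clk2, -0.0289 to 0.1454 for Rbm25 and -0.1151 to 0.0694 for Rbm39.

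The replicate numbers gave no sign of pairing the libraries. Deviations from the group means correlated at 0.181, -0.08 and -0.057 between same-numbered libraries and at -0.23 to 0.232 between others, and cKO replicate 2 correlated best with WT replicate 3. With the replicate number as a block, 0 members passed. With 3 libraries a group, an absence of calls does not show an absence of change.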

Other observations

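Regulators that give a tissue its own splicing pattern were described apart from the general machinery. Of 21 such genes 20 were tested, 8 higher and 12 lower in cKO, with a median log2 fold change of -0.05 and none past the threshold (smallest adjusted p = 0.798, limma). Without overlap, cKO lay above WT in 2 of them and below in 2, where 6.37% and 5.89% of all genes tested did. Khsrp, which binds AU-rich and intronic elements, stood at 35.8, 34.1 and 31.1 FPKM in cKO and 34.7, 43.9 and 39.4 FPKM in WT, with overlapping groups (log2 fold change -0.21 with SE 0.111, adjusted p = 0.798 by limma). Rbm47, an RNA-binding protein known from epithelia, was near the filter, at 1.53, 1.42 and 1.25 FPKM in cKO and 1.13, 0.980 and 0.869 FPKM in WT, and did not overlap (log2 fold change 0.27 with SE 0.142, adjusted p = 0.798 by limma). Rbm10, an X-linked splicing regulator, stood at 18.1, 20.3 and 15.8 FPKM in cKO and 22.2, 20.6 and 19.4 FPKM in WT. Esrp1, the epithelial splicing regulator, stood at 43.57, 35.3 and 41.8 FPKM in cKO and 44.6, 48.4 and 43.62 FPKM in WT. Its groups were next to each other without overlap (log2 fold change -0.18 with SE 0.105, adjusted p = 0.807 by limma).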
